A study of Mus musculus with 2 samples.

Results

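The genes described here are Calb2, Calb1 and Pvalb, which encode calretinin, calbindin D28k and parvalbumin. They were chosen by their symbols, with their ratios between the arrays known, and are 3 of 22180 genes that carried a symbol of their own on the array. Each was measured by 1 transcript cluster, the array's set of probes for a gene: 17512872 for Calb2 (gene ID 12308), 17411966 for Calb1 (gene ID 12307) and 17318942 for Pvalb (gene ID 19293). The genes lie on mouse chromosomes 8, 4 and 15. The samples were nasal mucosa of C57BL/6 mice aged 4 to 6 weeks, taken after instilled papain and after instilled phosphate-buffered saline (PBS), with day 3 given for both in the sample titles. Papain, a cysteine protease from papaya, serves as an allergen in mice, and PBS is the vehicle. A single GeneChip Mouse Gene 2.0 ST array was run for each group. Per the design text, 4 samples made up a combined specimen, and whether that means 4 per array is not said. With 1 array per group there was no replicate, no test and no p-value, and this number of arrays limits how precise any value can be.

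These 3 proteins belong to the EF-hand family, in which a helix-loop-helix fold holds a calcium ion. They act chiefly as buffers that bind calcium entering the cytoplasm and shape the size and duration of the calcium signal. In the brain they mark separate groups of interneurons, and calretinin has also been used to label sensory neurons of the olfactory and vomeronasal epithelia. Calbindin D28k is known in addition from vitamin D-regulated calcium transport in the kidney and from cells that form enamel, and parvalbumin from fast skeletal muscle fibres.

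Calb2 had a signal of 10.42 (log2) in the papain array, against 7.70 in the PBS array. It was therefore 6.61-fold higher after papain, a log2 ratio of 2.72. Calb1 went the other way, at 5.31 in the papain array against 6.48 in the PBS array, a log2 ratio of -1.18. Pvalb had 5.28 after papain and 4.93 after PBS, a log2 ratio of 0.35. Calb2 and Calb1 thus differed by more than 2-fold in opposite directions, and Pvalb lay within 2-fold. The genes were chosen with these ratios known, so the ratios are given as a description. Past 2-fold lay 1.83% of all named genes on the higher side and 0.73% on the lower side. Of the 11691 genes whose higher signal reached 6.29, the median of all named genes and here called the floor, 1.59% were higher and 0.385% lower by that measure. Nothing is read from the members' counts against these shares. The SD of a single cluster's log2 ratio was 0.24, taken from 224 genes that had repeated clusters with mean signals at or above the floor. The mean signals of Calb1 and Pvalb were under the floor, so the SD was not taken from genes as dim as these. That SD describes probe error within this pair of arrays and not the spread between mice.

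**Figure D1:**
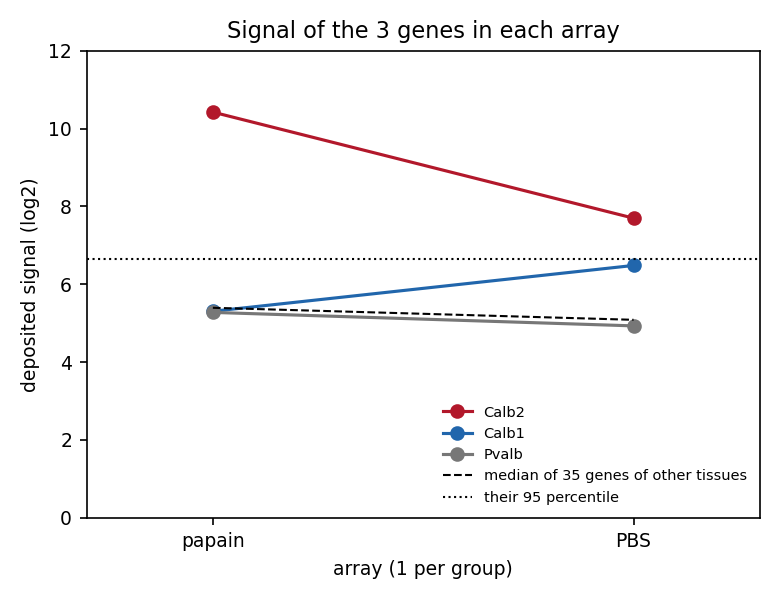
Deposited log2 signals (vertical axis) of Calb2, Calb1 and Pvalb in the papain and PBS arrays, 1 array per group, with the median of 35 genes of other tissues (dashed) and their 95 percentile of 6.66 (dotted). Calb2 lies above the dotted line in both arrays, Calb1 lies between the lines in the PBS array only, and Pvalb lies just under the dashed line in both.

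The size of these folds depends on how far each signal stood above background. Background level was the median over 35 genes typical of other tissues, such as liver, pancreas, testis and retina, and was 5.40 after papain and 5.09 after PBS. The 95 percentile of these genes over both arrays was 6.66. They ranged from 2.38 to 10.91, the brightest being the sperm tail gene Odf1 with 10.48 after papain and 10.91 after PBS. Calb2 exceeded 6.66 in both arrays, by the widest margin after papain. Calb1 was 0.09 under background level in the papain array and 1.40 above it in the PBS array, where it was still under 6.66. Its fold is thus a ratio of array signals whose lower side was at background, and its size in transcript is uncertain. Pvalb was under background level in both arrays, by 0.12 after papain and by 0.16 after PBS, and its ratio is no measure of transcript. The 35 genes of other tissues themselves had a median log2 ratio of 0.15. Outside the receptor families, genes with mean signals from 3 to 4, 4 to 5 and 5 to 6 had medians of 0.07, 0.10 and 0.06. The 1105 olfactory receptors, of which 782 were under background level in both arrays, had a median of -0.11. Dim signals thus did not all lean the same way.

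Set beside genes of like signal, Calb2 and Calb1 lay at the edges of the ratios. Of 1676 other genes whose mean signal was within 0.5 of that of Calb2, the central 95% of log2 ratios ran from -0.57 to 0.46. Only 1 of them, the S100 family calcium-binding protein gene S100z, had a ratio at least as high, with 11.35 after papain against 7.62 after PBS. Of 4168 genes of like signal to Calb1, 14 had a ratio at least as low, and 8 of these were olfactory receptors. The other 6 were Ambn, B3gnt9, Npy1r, Chrdl1, Igh-VS107 and Cyp4a29, named after their values were seen, with log2 ratios from -1.70 to -1.24. For Pvalb, 905 of 3898 genes of like signal, or 23.2%, had a ratio at least as high, so its ratio was an ordinary one for a dim gene.

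**Figure D2:**
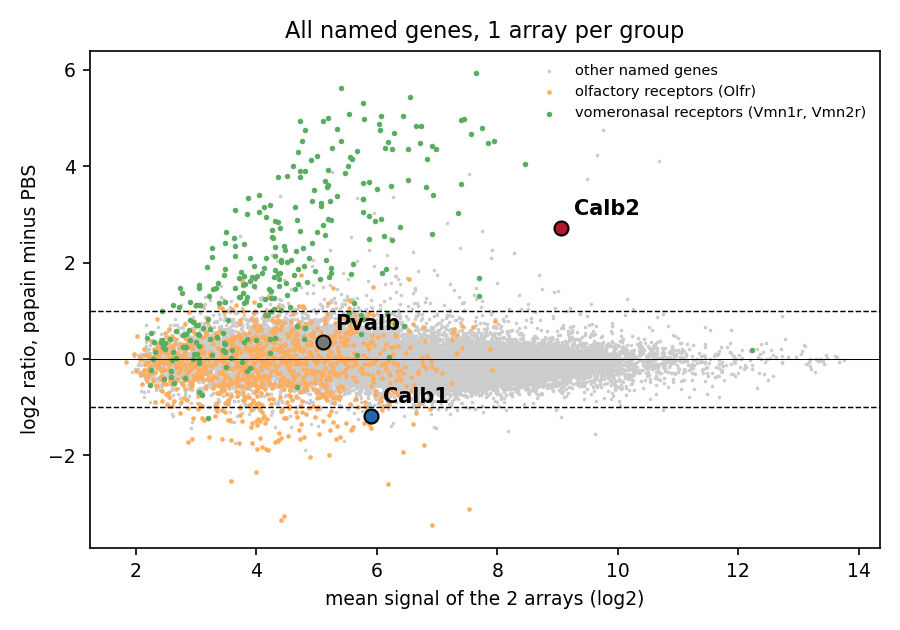
Log2 ratio of papain minus PBS (vertical axis) against the mean log2 signal of the 2 arrays (horizontal axis) for 22180 named genes, 1 point a gene, with dashed lines at 2-fold. Calb2 stands at a log2 ratio of 2.72 to the right of most vomeronasal receptors (green), Calb1 at -1.18 among the lowest ratios, and Pvalb at 0.35 inside the cloud of dim genes.

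Most genes that differed more than Calb2 in its direction were pheromone receptors. Among the 11691 genes above the floor, 88 had a higher ratio than Calb2. Of these, 78 were vomeronasal receptors, 0 were olfactory receptors and 10 were other genes. Both vomeronasal receptor families were higher in the same array. In family 1, 113 of 176 genes were past 2-fold on the higher side and 0 on the lower side, with a median log2 ratio of 1.46. In family 2, 86 of 109 were higher and 1 was lower by that measure, with a median of 2.58. The shares over all named genes were 1.83% higher and 0.73% lower. Above the floor, 40 of 44 family 1 genes were at least 2-fold higher, with a median of 3.57. The same held for 50 of 50 in family 2, with a median of 4.15. Median PBS signals were 3.23 and 3.38, so the lower side of most of these ratios was under background level. Signals were under background level in both arrays for 104 of the 176 and 41 of the 109, and those ratios are no measure of transcript. The summed linear signal of family 2 was 19827 after papain and 1669 after PBS, and that of family 1 was 19582 after papain and 6966 after PBS. The part of vomeronasal tissue in the Calb2 result was not tested. In samples of whole mucosa, more cells of a type and more RNA per cell cannot be told apart.

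Other vomeronasal neuron markers had ratios on both sides of 0, and 1 of them exceeded the ratio of Calb2. Of 10 measured, 7 had ratios above 0, 1 was at least 2-fold higher and 0 were lower. Among all named genes, 1.83% were higher and 0.73% lower by that measure. The markers' median log2 ratio was 0.23, against -0.03 over all named genes. The summed linear signal of the 10 markers was 5037 after papain and 4380 after PBS. The brightest genes weigh most in that sum, among them Gnai2 with 10.24 after papain and 10.15 after PBS, and Ano1 with 9.95 and 10.11. Calr4, a calreticulin family gene and the 1 above Calb2, was 10.2-fold higher, at 7.94 after papain against 4.59 after PBS, and its PBS signal was under background level. Trpc2, whose product is the vomeronasal transduction channel, had 7.04 after papain and 6.21 after PBS, a log2 ratio of 0.83. The G protein gene Gnao1, which accompanies family 2 receptors, had 0.56, and Gnai2, which accompanies family 1 receptors, had 0.10. Tfap2e, named after its value was seen, had 5.96 after papain and 5.15 after PBS, a log2 ratio of 0.81 from signals under the floor. Meis2 had 0.29 and Robo2 0.17. The 3 markers below 0, named after their values were seen, were Ano1 at -0.16, Nrp2 at -0.08 and Bcl11b at -0.04. None of the 10 markers was under background level in both arrays.

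Markers of peripheral nerve and sensory ganglia had ratios mostly above 0 and within 2-fold. Of 15 measured, 10 had ratios above 0, 0 reached 2-fold in either direction, and the median log2 ratio was 0.19. The 35 genes of other tissues leaned the same way, with 24 above 0 and a median of 0.15. Over the 6 markers above the floor the median was 0.53. Below 0 were Trpv1 at -0.36, Trpm8 at -0.24, Piezo2 at -0.16, Scn9a at -0.13 and Scn10a at -0.02, named after their values were seen. The synaptic vesicle protein gene Syt1 had 8.59 after papain and 7.70 after PBS, a log2 ratio of 0.89. Uchl1, a neuronal ubiquitin hydrolase gene, had 0.65, the synaptic membrane protein gene Snap25 had 0.54, Prph, an intermediate filament gene of peripheral neurons, 0.52, and Elavl3, a neuronal RNA-binding protein gene, 0.29. The summed linear signal of this list was 2515 after papain and 1915 after PBS. Calb2 exceeded every one of these ratios by more than 1 on the log2 scale, and the part of a larger share of neurons in its ratio was not tested.

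Markers of mature olfactory neurons were mostly lower in the papain array, where Calb2 was higher. Of 13 mature olfactory neuron markers, 3 had ratios above 0 and 10 below, with a median log2 ratio of -0.28. The 3 above 0 were Rtp2 at 0.54, Rtp1 at 0.45 and Cngb1 at 0.14. The summed linear signal of the 13 markers was 10709 after papain and 14109 after PBS. The brightest genes weigh most in that sum, among them Stoml3 with 12.27 after papain and 12.71 after PBS. Stoml3, Rtp1 and Cngb1 are named after their values were seen. Omp, the olfactory marker protein that both olfactory and vomeronasal neurons make, had 9.87 after papain and 9.94 after PBS. S100a5, an S100 calcium-binding protein gene of mature olfactory neurons, was the 1 member past 2-fold, at 10.21 after papain against 11.27 after PBS. Among all named genes, 1.83% were higher and 0.73% lower by that measure. Among immature olfactory neuron and progenitor markers, 10 of 11 had ratios above 0 and 0 reached 2-fold, with a median of 0.18 that became 0.02 when the clusters of a gene were averaged. Gng8, a G protein gamma subunit gene of immature olfactory and vomeronasal neurons, had 8.40 after papain and 7.42 after PBS, a log2 ratio of 0.99, while Gap43, a growth cone protein gene, had 0.01. All 13 mature markers reached the floor, so the defining genes of the olfactory part of the labelled mucosa were present.

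Scgn and Vsnl1, of the same EF-hand superfamily, were also past 2-fold in the papain array. Of 35 other measured EF-hand calcium sensors and buffers, 2 were at least 2-fold higher, 0 were lower and 33 lay within 2-fold. The shares over all named genes were 1.83% higher and 0.73% lower. The list's median log2 ratio was -0.05, against -0.03 over all named genes. Scgn, which encodes secretagogin, a calcium sensor of neuroendocrine cells and some neurons, was 2.95-fold higher, at 7.16 after papain against 5.60 after PBS. Its PBS signal was under 6.66, which leaves the size of that fold uncertain. Vsnl1, which encodes the neuronal calcium sensor visinin-like protein, was 2.50-fold higher, at 9.01 after papain against 7.69 after PBS, both signals above 6.66. Ocm, which encodes oncomodulin, the close relative of parvalbumin, had 7.71 after papain and 7.60 after PBS. Of the members with lower signals after papain, Necab1 had a log2 ratio of -0.56, Hpcal1 -0.51 and Calml4 -0.34, and all of these lay within 2-fold.

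Genes of calcium pumps, exchangers, release channels and store proteins had ratios on both sides of 0. Of 24 measured, Calr4 was the 1 gene past 2-fold, on the higher side, and the median log2 ratio was -0.05. Among all named genes, 1.83% were higher and 0.73% lower by that measure. The plasma membrane calcium pump gene Atp2b1 had 0.31, the reticulum pump gene Atp2a3 had -0.37, and the sodium-calcium exchanger gene Slc8a3 had -0.72. Slc24a4, the exchanger of olfactory neuron cilia, had 8.17 after papain and 8.47 after PBS.

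Beside Calb1, genes of enamel and bone had ratios mostly below 0, and 10 of 14 lay within 2-fold. Of 14 measured genes of that list, 12 had ratios below 0 and 3 were at least 2-fold lower. Another 1, Odam, was higher by that measure from a PBS signal of 3.99 under background level. Among all named genes, 0.73% were lower and 1.83% higher. The list's median log2 ratio was -0.51, against -0.03 over all named genes. Ambn, the enamel matrix protein ameloblastin, had 4.60 after papain, under background level, and 6.30 after PBS. The enamel genes Amelx and Enam, named after their values were seen, were also under background level after papain, at 4.15 and 3.23. Enam was under background level after PBS too, at 4.21, so its ratio is no measure of transcript. Amelx, 1 of the 3 lower genes, had 5.15 after PBS, close to the background level of 5.09. It did not reach the floor in either array, and the size of its fold is uncertain. The enamel genes Amtn, Mmp20 and Klk4, named likewise, had log2 ratios of -0.15, -0.02 and 0.18. Ifitm5, a gene of osteoblasts, had 5.85 after papain and 7.03 after PBS, a log2 ratio of -1.18. The osteoblast transcription factor gene Sp7 had -0.81, the osteocalcin gene Bglap -0.68 and Dmp1, a matrix protein gene of bone and dentin, -0.57. The summed linear signal of the list was 3053 after papain and 4263 after PBS. The part of bone and tooth tissue in the Calb1 result was not tested.

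The genes of vitamin D response and epithelial calcium transport had ratios on both sides of 0. Of 11 measured, 1 was at least 2-fold higher, 0 were lower, and the median log2 ratio was -0.02. Among all named genes, 1.83% were higher and 0.73% lower by that measure. The vitamin D receptor gene Vdr had 7.05 after papain and 7.37 after PBS, a log2 ratio of -0.32, and the parathyroid hormone receptor gene Pth1r had -0.66. S100g, which encodes calbindin D9k, a smaller protein of the S100 family, had 6.13 after papain and 4.86 after PBS, and its PBS signal was under background level. It was the 1 gene past 2-fold and did not reach the floor in either array. The vitamin D target gene Cyp24a1, named after its value was seen, was under background level in both arrays, at 4.66 after papain and 4.68 after PBS.

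Above the floor, 12 olfactory receptors and 12 other genes had lower ratios than Calb1. Some genes, in part the same, lay very close to Calb1 in both arrays. For naming the nearest genes, predicted genes, small RNAs, clone names and the receptor families were left out. Among the rest, the nearest by Euclidean distance over the 2 log2 signals was Igh-VS107, an immunoglobulin gene, at a distance of 0.06. Another immunoglobulin segment followed at 0.13, and then the cornified envelope gene Lce1h at 0.13, the sodium channel subunit gene Scn4b at 0.14 and Psors1c2 at 0.16. Counted over all named genes with nothing left out, 17 lay within 0.25 of Calb1. For Calb2 that number was 0. Its nearest genes among those kept for naming were the lipoxygenase gene Alox12e at 0.87, Tsnax and S100z both at 0.93, the phosphodiesterase gene Pde5a at 0.95 and Inafm2 at 1.01. For Pvalb 630 genes lay within 0.25, the nearest of those kept for naming being Spata20, Lrit3, Slc13a2os, Csf2 and Mtfr2 at distances up to 0.04. With 2 arrays, nearness means a like signal and a like ratio and nothing more.

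Pvalb was dim, and so were most genes of fast skeletal muscle fibres, which are rich in parvalbumin. Of 20 measured muscle genes, 0 reached 2-fold in either direction and 12 had ratios above 0, with a median log2 ratio of 0.25 over all of them and 0.03 over the 3 above the floor. Of the 20, 8 did not reach background level in either array. The muscle creatine kinase gene Ckm had 5.91 after papain and 4.97 after PBS, the muscle actin gene Acta1 had 5.98 after papain and 6.26 after PBS, and the fast myosin light chain gene Mylpf had 3.10 after papain and 3.97 after PBS. The summed linear signal of the list was 994.2 after papain and 924.2 after PBS.

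A promoter window was matched in RefSeq for 1 of the 3 genes, Pvalb, which had 2 annotated starts. The 250 bases before the upstream start are shown because they hold the MEF2 motif, the site of a muscle transcription factor, while Pvalb and most muscle genes gave little signal here. They lie on the minus strand of GRCm38.p6, at chr15:78206401-78206650, and the capitals mark the motif, found on the opposite strand from 180 to 171 bases before the start.
Pvalb upstream start: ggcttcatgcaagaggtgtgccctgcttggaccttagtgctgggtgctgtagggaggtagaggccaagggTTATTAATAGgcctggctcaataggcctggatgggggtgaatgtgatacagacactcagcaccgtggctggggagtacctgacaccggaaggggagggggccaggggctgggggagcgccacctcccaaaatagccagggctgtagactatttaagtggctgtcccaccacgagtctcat
The motif was found in 1.69% of 32851 such windows of 250 bases, searched on both strands, and in 0 of 1 window before the other Pvalb start. A match is a description of the letters and shows no binding.

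Interneuron genes gave no common pattern with the 3 genes. Of 16 interneuron and neuroendocrine markers, 0 reached 2-fold, 12 had ratios above 0 and the median log2 ratio was 0.16. The genes of the enzymes that make GABA were close to background level, with Gad1 at 5.18 after papain and 5.09 after PBS, and Gad2 at 5.70 after papain and 5.28 after PBS. Chga, which encodes the secretory granule protein chromogranin A, had 9.85 after papain and 8.90 after PBS, a log2 ratio of 0.94.

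**Figure D3:**
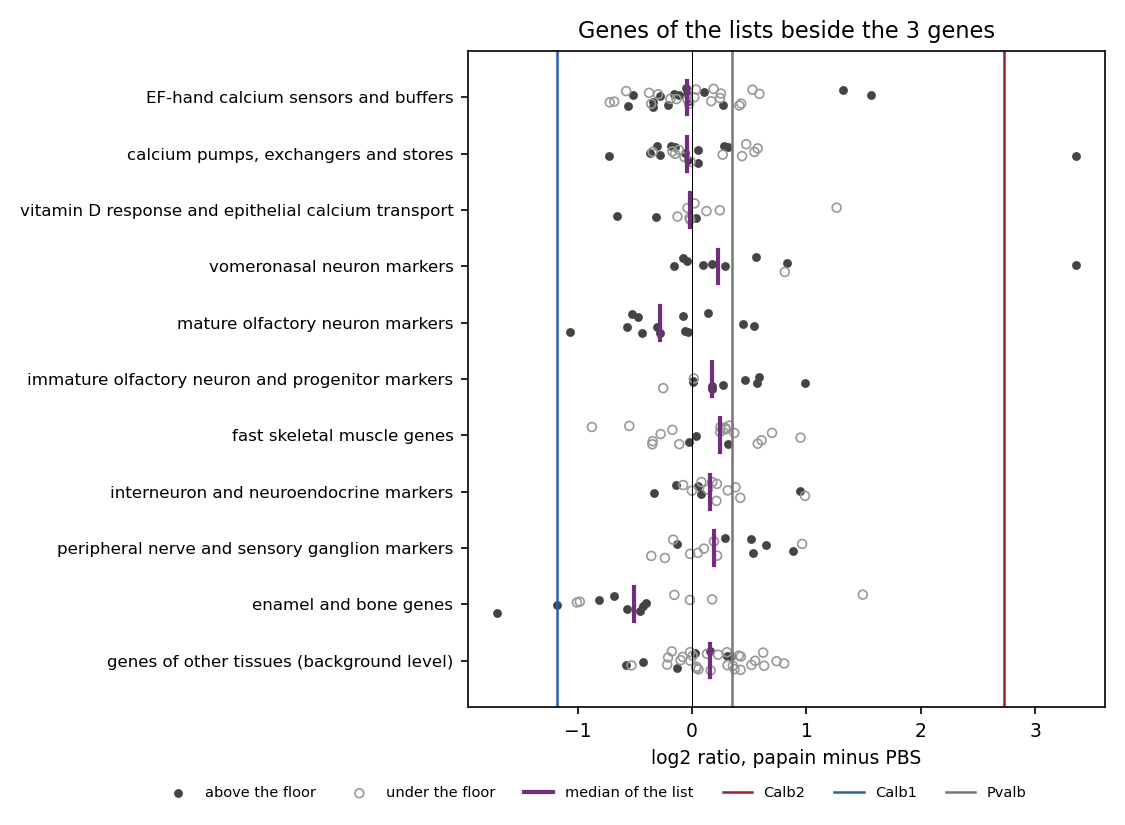
Log2 ratio of papain minus PBS (horizontal axis) for the measured genes of each list (rows), filled where the higher signal reached the floor of 6.29 and open where it did not, with purple bars at list medians and coloured lines at the ratios of Calb2, Calb1 and Pvalb. Calr4, which stands in 2 of the lists, is the only listed gene to the right of Calb2, and the enamel and bone row holds the only listed genes at or to the left of Calb1.

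The chromosomal neighbours of Calb2 and Calb1 lay within 2-fold. On chromosome 8, the protein-coding neighbours of Calb2 that were measured, Zfp612, Cmtr2 and Hydin, had log2 ratios of -0.63, 0.48 and -0.46. On chromosome 4, Calb1 lies beside Necab1, Tmem64, Decr1 and Nbn, with ratios of -0.56, -0.29, 0.14 and -0.19. On chromosome 15, Cacng2, a calcium channel and glutamate receptor auxiliary subunit gene that neighbours Pvalb, had 6.65 after papain and 5.04 after PBS, a log2 ratio of 1.62 whose lower signal was under background level. The other neighbours of Pvalb, Ift27, Ncf4 and Csf2rb2, had ratios of -0.43, 0.35 and 0.04.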

How the data were processed

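The authors deposited 1 log2 signal per transcript cluster and array. The log2 scale was inferred from the numbers, whose median was 5.70 for papain and 5.64 for PBS. Per the submitters' processing notes, Transcriptome Analysis Console 4.0 was used. How the authors corrected background, summarised probes and normalized the log2 values is not given in the sources used here. Any normalization that equalised the arrays makes each ratio relative to the bulk of genes. The arrays correlated with r = 0.967 across 41345 clusters, which are not replicates.

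Of the clusters, 23521 carried 1 gene symbol in the platform annotation, 1814 several and 16010 none, and only the first kind were named. The cluster with the highest mean signal stood for a gene. Of the named clusters, 23328 had gene IDs in the GRCm38.p6 RefSeq table, 0 of them with another symbol there. Of 177 genes in 10 lists, 164 were measured. Members and lists were chosen with earlier results of these data known.

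The log2 ratio was papain minus PBS. Named genes were all members, up to 5 genes above the floor with the largest ratio in each list, a fixed set of markers, the 5 genes nearest each member, and 2 chromosomal neighbours per side. The nearest genes were picked with predicted genes, small RNAs, clone names and receptor families left out. Odam and the genes marked so in the text were named after their values were seen. The counting was tested on simulated data with large shifts and little noise, which checks the code and not the calls made here. Alternatives were quantile normalization, a median ratio of 0, loess with a span of 0.3, averaged clusters, other floors and fold thresholds, and no receptor families. Python 3.11.15, numpy 2.4.6, pandas 2.3.3, statsmodels 0.14.6 and matplotlib 3.10.9 were used.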

Additional observations from a re-analysis of the deposited data

How the results depend on the processing

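Over the 4 alternatives of scaling and of averaging clusters, the log2 ratio ran from 2.72 to 2.79 for Calb2, from -1.22 to -1.16 for Calb1 and from 0.26 to 0.36 for Pvalb, so no member changed direction or side of 2-fold. Of 10 list medians, 1 changed sign, that of the vitamin D and calcium transport list, from -0.02 to as high as 0.02. With members above the floor only, that median was -0.32 and that of peripheral nerve and sensory ganglion markers was 0.53. Past 2-fold and above the floor lay 186 higher and 45 lower genes. With no floor these were 405 and 162, with a floor at the 75 percentile 93 and 18, and at 1.5-fold 397 and 507, where the balance turned to lower genes. At 3-fold they were 126 and 6, and without receptor families 94 and 30. The median of immature olfactory neuron and progenitor markers was 0.02 with averaged clusters, and that of muscle genes 0.03 above the floor. No paired analysis was possible because each group was 1 array and the labels carry no replicate numbers. Signal over background limits the ratios of Calb1 and Pvalb.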
